A study of Mus musculus with 12 samples.

Results

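The 36 mouse genes described here encode proteins that take a cell through mitosis: the kinases and cyclins of mitotic entry, the spindle checkpoint, the machinery of anaphase onset, the centromere and kinetochore, the chromosomal passenger complex, spindle motors, the midzone of the dividing cell, and the mitotic chromosome itself. They were chosen by name as a functional module, and no measured value enters the rule. In the deposited transcript table they match 82 of 63759 transcript rows, which were summed to 36 of 32699 gene symbols. All 36 passed the filter on low counts that left 19125 genes to test. RNA was measured in purified splenic B cells carrying either a knockout (KO) of Chd4, which encodes a nucleosome-remodelling ATPase of the NuRD complex, or the wild-type gene (WT). There were 4 groups of 3 libraries each. They were KO cells after 48 hr of culture with lipopolysaccharide (LPS, 10 µg/ml) plus interleukin-4 (IL-4, 25 ng/ml), WT cells under that stimulation, unstimulated KO cells (0 hr), and unstimulated WT cells (0 hr). LPS plus IL-4 is a standard culture for making resting B cells divide and switch antibody class. The strain, sex and age of the mice, the part of Chd4 that was deleted, any Cre driver, and whether animals were pooled are not given in the sources used here. The labels number the libraries 1 to 12 and do not say whether those of a group came from separate animals or cultures, so the p-values measure the spread between these libraries, which may be technical.

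Before division a cell raises the cyclin B and Cdk1 kinase, condenses its chromosomes, and builds a spindle whose microtubules are captured by a kinetochore on each centromere. The spindle checkpoint keeps the anaphase-promoting complex off until every kinetochore is attached. The complex, with its activator Cdc20, then marks securin and cyclin B for destruction, separase cuts cohesin, and the sister chromatids part. Most genes of this program are transcribed late in the cell cycle under the MuvB, B-MYB and FOXM1 proteins, are kept low in resting lymphocytes, and come on when B cells are activated.

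Library totals ran between 38956484 and 53189198 estimated counts. The targeted gene separated the genotypes at 48 hr and not at 0 hr. Chd4 was at 51.3, 38.8 and 74.7 CPM (counts scaled to library size) in the KO 48 hr libraries and at 102, 96.1 and 123 CPM in the WT 48 hr libraries. At 0 hr it was at 100, 70.6 and 92.8 CPM in the KO 0 hr libraries and 99.4, 68.1 and 92.8 CPM in the WT 0 hr libraries. The genotypes also differed in sex-linked RNA. At 48 hr Xist was lower in KO by 6.38 on the log2 scale, and the Y-linked Ddx3y was higher in KO by 2.45. The WT libraries held RNA of both genes. Xist was at 75.4 to 83.7 CPM and Ddx3y at 20.8 to 21.8 CPM in WT at 48 hr. In WT at 0 hr they were at 217 to 293 CPM and 23.5 to 28.3 CPM. Genotype and sex therefore cannot be told apart, and no member lies on the X or Y chromosome. Biological coefficients of variation were 23.9% in KO and 14.3% in WT at 48 hr, and 31.1% in KO and 17.7% in WT at 0 hr. The summed level of 9 T cell markers was 114, 113 and 45 CPM in the KO 48 hr libraries and 38.6 to 43 CPM in the WT 48 hr libraries, so that KO 48 hr replicates 10 and 11 stood apart. Not every marker followed that sum, since Cd4 and Cd5 were highest in KO 48 hr replicate 12 and Zap70 was lowest there. At 0 hr the same sum was 125, 131 and 62.4 CPM in the KO libraries and 61.7 to 70.6 CPM in the WT libraries, with KO replicates 4 and 5 high. The sums at either time do not by themselves measure T cells. Results below that differ without those pairs of libraries are given both ways. The B cell markers were high throughout, with summed levels of 5630 to 6860 CPM in KO and 6140 to 6670 CPM in WT at 48 hr, and 7580 to 10300 CPM in KO and 7340 to 9080 CPM in WT at 0 hr.

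The mitosis genes rose together over 48 hr of stimulation, all 36 in both genotypes, although the direction of Pttg1 turned when libraries were scaled by their totals alone. In KO cells 36 of 36 members were called higher at 48 hr than at 0 hr (edgeR quasi-likelihood F test, Benjamini-Hochberg adjusted p below 0.05), where 33% of all tested genes were called higher. In WT cells 36 of 36 were also called higher, again where 33% of all tested genes were. For all 36, every 48 hr library lay above every 0 hr library of the same genotype, as it did for 33% of all tested genes in KO and 34.9% in WT. The median member log2 fold change was 4.68 in KO and 4.24 in WT, while the median over all tested genes was -0.30 in KO and -0.39 in WT. Apart from Pttg1, the largest edgeR adjusted p was 1.7e-08 in KO and 1.9e-08 in WT, both for Cenpf. Together the members took 0.832%, 0.841% and 0.781% of all counts in the KO 48 hr libraries and 0.75%, 0.739% and 0.759% in the WT 48 hr libraries. At 0 hr they took 0.0811%, 0.0713% and 0.0732% of counts in the KO libraries and 0.0755%, 0.0863% and 0.0777% in the WT libraries. In bulk RNA such as this, more dividing cells and more mitotic RNA per cell cannot be told apart.

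**Figure D1:**
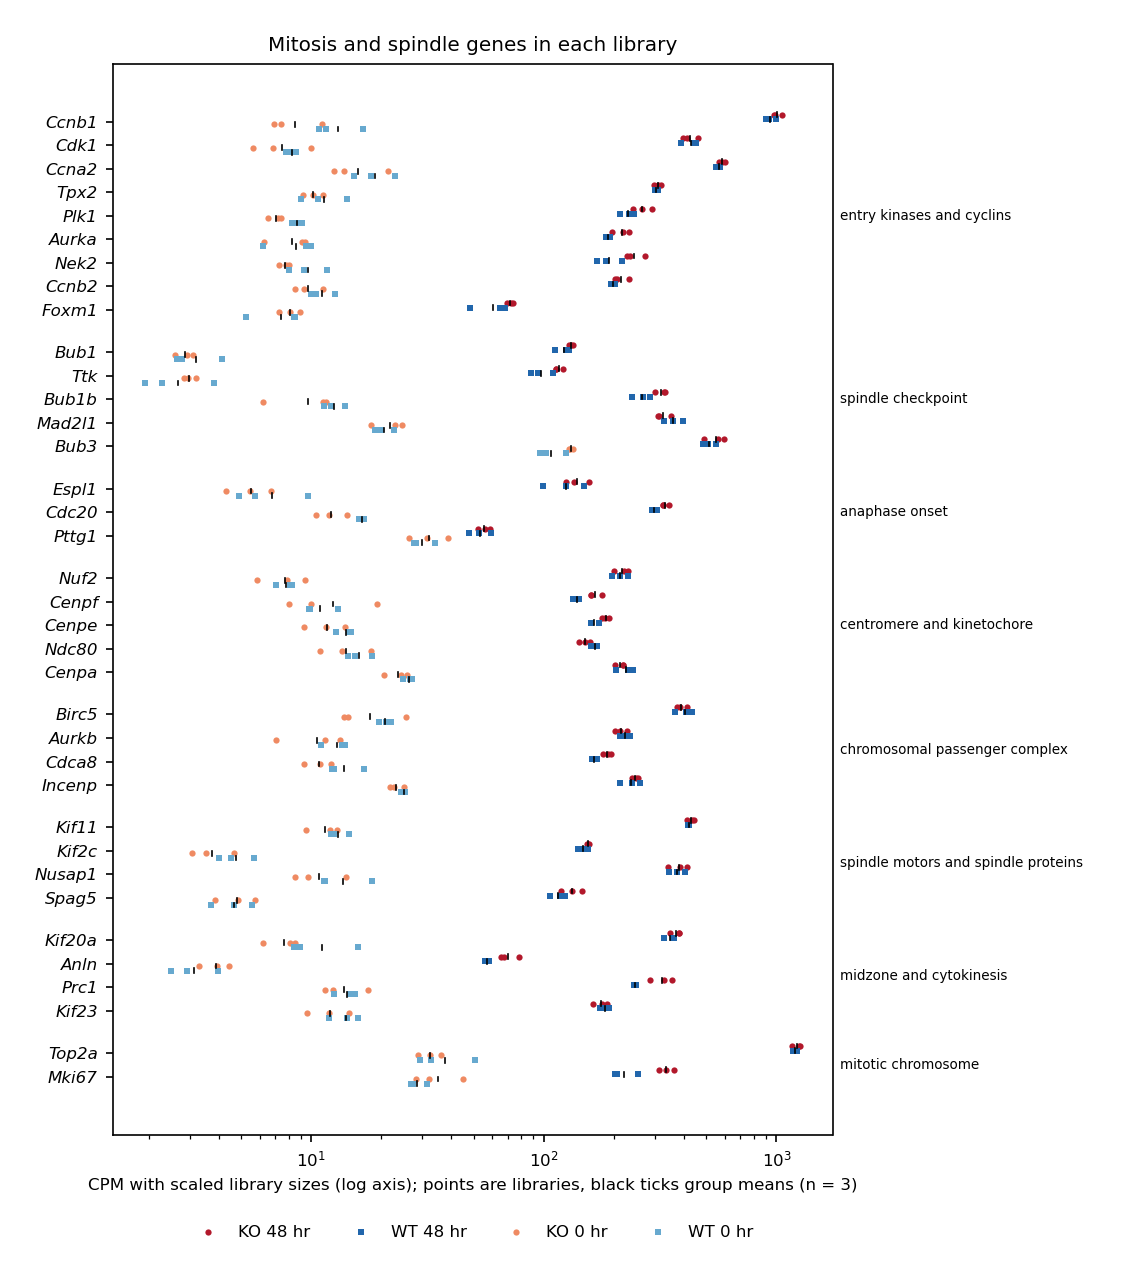
Each point is the level of 1 member in 1 library, in TMM-scaled CPM on a log axis, with the members grouped by role and a black tick at each group mean (n = 3). The 48 hr points stand above the 0 hr points for every member and the narrowest gap is at Pttg1, whose 0 hr libraries reach 38.6 CPM and whose 48 hr libraries start at 47.7 CPM.

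The widest change in the module was that of cyclin B1. Ccnb1, which encodes cyclin B1, the partner that activates Cdk1, was at 984, 1060 and 975 CPM in the KO 48 hr libraries and 927, 1000 and 899 CPM in the WT 48 hr libraries. At 0 hr it was at 7.39, 6.93 and 11.1 CPM in the KO libraries and 11.6, 16.6 and 10.8 CPM in the WT libraries. Every stimulated library was far above every unstimulated one, and KO and WT overlapped at both times. Its fitted log2 fold change over time was 6.89 (SE 0.23) in KO and 6.18 (SE 0.22) in WT, the largest of the 36 in each genotype. That is 118-fold in KO and 72.7-fold in WT. Cdk1, the mitotic kinase itself, was at 413, 462 and 395 CPM in the KO 48 hr libraries and 442, 452 and 390 CPM in the WT 48 hr libraries. Unstimulated, it was at 9.99, 6.85 and 5.6 CPM in the KO libraries and 7.81, 8.62 and 8.28 CPM in the WT libraries. Its rise was 56.7-fold in KO and 52-fold in WT. Plk1, the polo-like kinase that drives entry and centrosome maturation, was at 291, 263 and 242 CPM in the KO 48 hr libraries and 233, 212 and 245 CPM in the WT 48 hr libraries. In unstimulated cells it was at 6.51, 7.16 and 7.38 CPM in the KO libraries and 8.62, 9.11 and 8.24 CPM in the WT libraries. KO and WT overlapped for Plk1 at 48 hr and not at 0 hr, and its log2 fold change was 5.24 (SE 0.12) in KO and 4.73 (SE 0.12) in WT.

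The other entry genes followed the same order of times. The log2 fold change of Ccna2 (cyclin A2) was 5.20 (SE 0.21) in KO and 4.92 (SE 0.21) in WT, and that of Ccnb2 (cyclin B2) was 4.46 (SE 0.14) in KO and 4.16 (SE 0.14) in WT. Aurka, the centrosomal Aurora kinase, had a log2 fold change of 4.71 (SE 0.20) in KO and 4.46 (SE 0.20) in WT, and Tpx2, the spindle protein that activates it, had 4.92 (SE 0.16) in KO and 4.75 (SE 0.16) in WT. Nek2, a kinase that splits centrosomes, had a log2 fold change of 4.99 (SE 0.16) in KO and 4.29 (SE 0.16) in WT. Foxm1, the transcription factor that acts on many of these promoters, was at 72.1, 69.6 and 73.8 CPM in the KO 48 hr libraries and 65, 48.1 and 68.2 CPM in the WT 48 hr libraries. Its 0 hr levels were 7.27, 8.13 and 8.98 CPM in the KO libraries and 5.25, 8.46 and 8.5 CPM in the WT libraries. Its own log2 fold change of 3.14 (SE 0.19) in KO and 3.03 (SE 0.19) in WT was the smallest of the 9 entry genes in each genotype, and the median of the 9 was 4.99 in KO and 4.73 in WT.

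Among the 5 checkpoint genes, Bub1 and Ttk rose most and Bub3 least. Bub1, the kinetochore kinase that recruits checkpoint proteins, was at 131, 133 and 128 CPM in the KO 48 hr libraries and 128, 112 and 125 CPM in the WT 48 hr libraries. Before stimulation it was at 2.92, 2.59 and 3.1 CPM in the KO libraries and 2.65, 4.13 and 2.78 CPM in the WT libraries. Its log2 fold change was 5.51 (SE 0.17) in KO and 5.26 (SE 0.17) in WT. Ttk, the checkpoint kinase also called Mps1, had a log2 fold change of 5.28 (SE 0.21) in KO and 5.19 (SE 0.21) in WT, and Bub1b, which encodes the checkpoint inhibitor BubR1, had one of 5.04 (SE 0.21) in KO and 4.40 (SE 0.21) in WT. Mad2l1, which encodes the Mad2 protein that binds Cdc20, had a log2 fold change of 3.90 (SE 0.14) in KO and 4.14 (SE 0.14) in WT. Bub3, a kinetochore adaptor for Bub1 and BubR1, was at 559, 596 and 490 CPM in the KO 48 hr libraries and 510, 551 and 481 CPM in the WT 48 hr libraries. At 0 hr it was at 128, 129 and 134 CPM in the KO libraries and 102, 124 and 96 CPM in the WT libraries. No library of unstimulated cells was under 96 CPM for Bub3, and its rise was 4.21-fold in KO and 4.79-fold in WT.

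Of the 3 anaphase genes, Cdc20, the activator of the anaphase-promoting complex, was at 344, 324 and 325 CPM in the KO 48 hr libraries and 300, 291 and 305 CPM in the WT 48 hr libraries. Unstimulated, it was at 10.5, 11.9 and 14.2 CPM in the KO libraries and 16.8, 16.8 and 16.1 CPM in the WT libraries. Its log2 fold change was 4.76 (SE 0.12) in KO and 4.17 (SE 0.12) in WT. Espl1, which encodes separase, had a log2 fold change of 4.65 (SE 0.26) in KO and 4.2 (SE 0.26) in WT. Pttg1, which encodes securin, the inhibitor that holds separase until anaphase, was at 52.1, 58.6 and 55.6 CPM in the KO 48 hr libraries and 52.4, 59.5 and 47.7 CPM in the WT 48 hr libraries. In unstimulated cells it was at 38.6, 26.4 and 31.3 CPM in the KO libraries and 34.1, 27.6 and 28.3 CPM in the WT libraries. The 48 hr libraries were above the 0 hr libraries in both genotypes, but by a narrow margin. Its log2 fold change was 0.79 (SE 0.15) in KO and 0.83 (SE 0.15) in WT, the smallest of the 36, with edgeR adjusted p of 2.9e-04 in KO and 1.9e-04 in WT. That call depended on scaling: with upper-quartile factors the change was 0.15 in each genotype (edgeR adjusted p 0.38), and with library totals alone its sign turned, to -0.03 in KO and -0.07 in WT.

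The centromere and kinetochore genes had the lowest median of any role after stimulation, 3.75 in KO and 3.55 in WT on the log2 scale. Nuf2, a subunit of the microtubule-binding Ndc80 complex, had a log2 fold change of 4.82 (SE 0.17) in KO and 4.77 (SE 0.17) in WT, while its partner Ndc80 had a log2 fold change of 3.41 (SE 0.17) in KO and 3.38 (SE 0.16) in WT. Nuf2 averaged 217 ± 15.3 CPM in KO and 213 ± 17.4 CPM in WT at 48 hr, and 7.72 ± 1.79 CPM in KO and 7.79 ± 0.675 CPM in WT at 0 hr (SD, n = 3 in each group), and Ndc80 averaged 150 ± 7.8 CPM in KO and 166 ± 5.67 CPM in WT at 48 hr, and 14.1 ± 3.58 CPM in KO and 16 ± 1.94 CPM in WT at 0 hr. Cenpa, the histone H3 variant that marks the centromere, had a log2 fold change of 3.18 (SE 0.12) in KO and 3.11 (SE 0.12) in WT. Cenpe, a kinetochore motor, had a log2 fold change of 3.99 (SE 0.14) in KO and 3.55 (SE 0.14) in WT, and Cenpf, a large kinetochore protein, had one of 3.75 (SE 0.26) in KO and 3.68 (SE 0.26) in WT.

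In the chromosomal passenger complex, which corrects faulty attachments, the kinase Aurkb had a log2 fold change of 4.33 (SE 0.20) in KO and 4.12 (SE 0.20) in WT and the survivin gene Birc5 had one of 4.44 (SE 0.21) in KO and 4.28 (SE 0.21) in WT. The borealin gene Cdca8 had a log2 fold change of 4.12 (SE 0.15) in KO and 3.56 (SE 0.14) in WT and the scaffold Incenp had one of 3.42 (SE 0.11) in KO and 3.24 (SE 0.11) in WT. Each of the 4 spindle genes had a larger log2 fold change than each of the 4 passenger genes. Kif11, the motor that pushes spindle poles apart, had a log2 fold change of 5.22 (SE 0.14) in KO and 5.00 (SE 0.14) in WT. The microtubule depolymerase Kif2c had a log2 fold change of 5.36 (SE 0.17) in KO and 4.97 (SE 0.17) in WT, Nusap1, which bundles spindle microtubules, had one of 5.14 (SE 0.23) in KO and 4.77 (SE 0.23) in WT, and Spag5, the spindle protein astrin, had one of 4.78 (SE 0.18) in KO and 4.64 (SE 0.18) in WT. Of the midzone and cytokinesis genes, the kinesin Kif20a had a log2 fold change of 5.60 (SE 0.24) in KO and 4.98 (SE 0.23) in WT and the centralspindlin motor Kif23 had one of 3.87 (SE 0.16) in KO and 3.70 (SE 0.16) in WT. The microtubule crosslinker Prc1 had a log2 fold change of 4.55 (SE 0.17) in KO and 4.13 (SE 0.17) in WT and the contractile ring scaffold Anln had one of 4.17 (SE 0.18) in KO and 4.19 (SE 0.18) in WT. Top2a, which untangles sister chromatids, had a log2 fold change of 5.24 (SE 0.20) in KO and 5.00 (SE 0.20) in WT. Mki67, whose Ki-67 protein coats mitotic chromosomes and is the usual marker of dividing cells, had a log2 fold change of 3.26 (SE 0.17) in KO and 2.96 (SE 0.17) in WT, less than Top2a in each genotype.

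**Figure D2:**
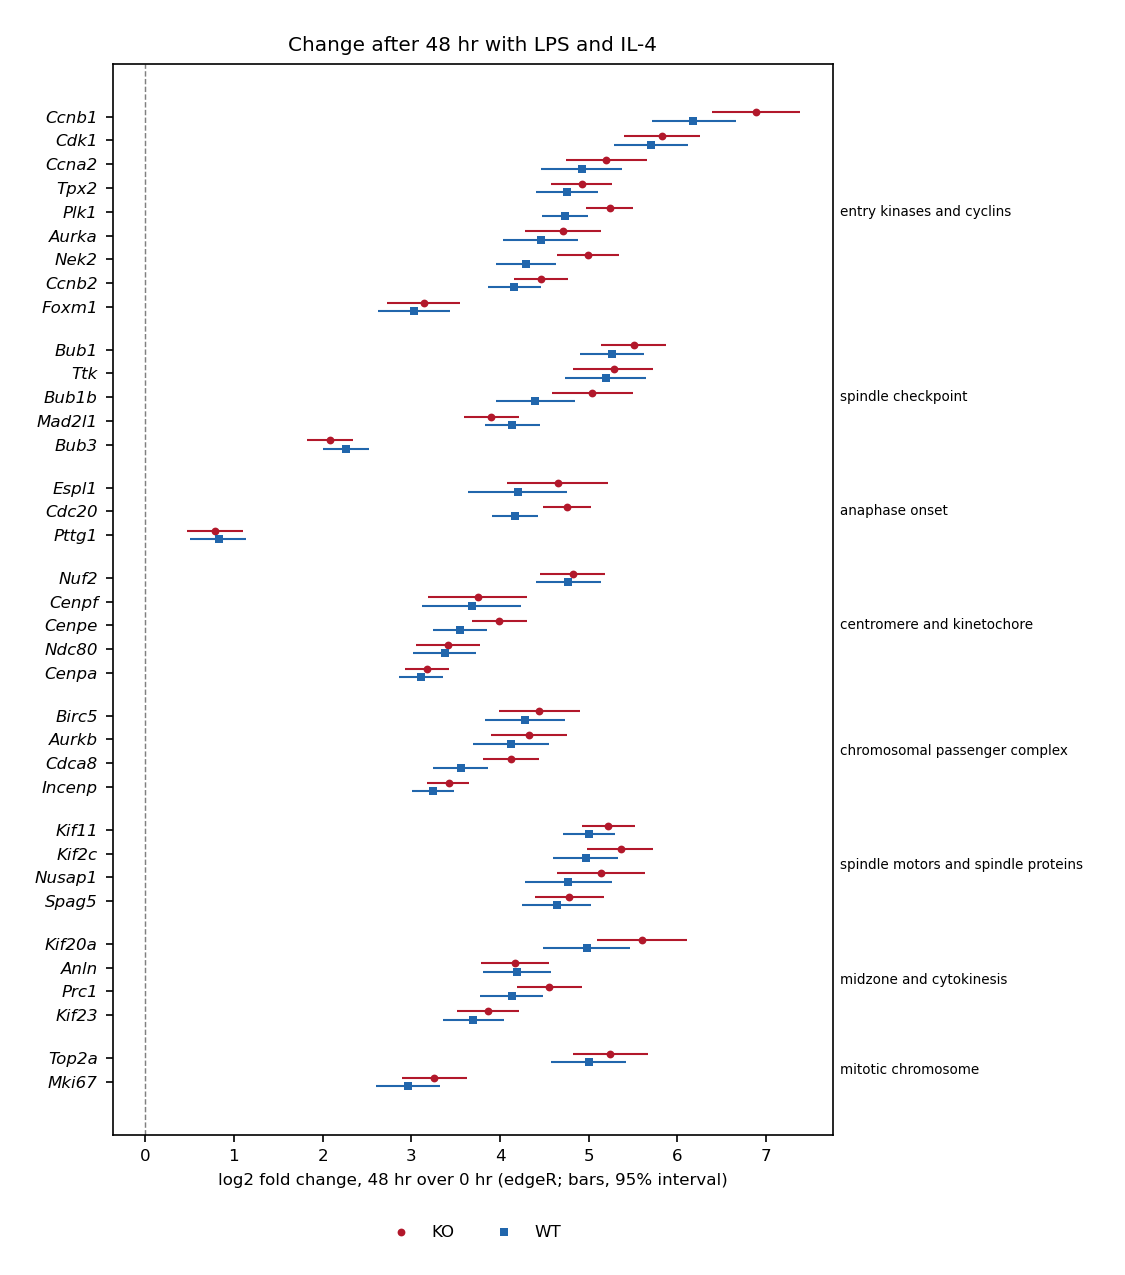
Log2 fold change of each member at 48 hr over 0 hr, in KO and in WT, with the 95% interval from the edgeR fit and the members ordered by role. With TMM scaling all intervals lie above 0. Ccnb1 is at the top of the scale with 6.89 in KO and 6.18 in WT, and Pttg1, which turned negative with library totals alone, at the bottom with 0.79 in KO and 0.83 in WT.

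The order of the fold changes was much the same in both genotypes: Pearson's r across the 36 genes was 0.981, and 0.89 across all tested genes, as a description over genes that are not independent and share libraries within each genotype. Levels between genes were compared as CPM per kilobase of the longest coding transcript. At 48 hr Ccnb1 led on this scale, at 404 ± 18.7 CPM per kilobase in KO and 379 ± 21.4 in WT, ahead of Top2a at 235 ± 9.53 in KO and 230 ± 3.85 in WT (SD, n = 3). At 0 hr Bub3 led, at 38.1 ± 1.02 CPM per kilobase in KO and 31.4 ± 4.41 in WT. Pttg1 and Cenpa came next with ranges that overlapped, Pttg1 at 19.2 ± 3.67 in KO and 17.9 ± 2.14 in WT, and Cenpa at 16.1 ± 1.92 in KO and 17.8 ± 0.781 in WT. Ccnb1, first at 48 hr, was 17th of the 36 in KO and 13th in WT before stimulation.

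The promoters of the module were set beside this shared rise. The table of RefSeq promoter sequences (build GRCm38.p6, 250 bases before to 50 after each start) held 30 of the 36 members, in 32 windows; Aurkb, Ccna2, Tpx2, Kif20a, Incenp and Foxm1 were not matched. Both strands were searched for CCAAT (or ATTGG), the core letters of the NF-Y site. They were also searched for TTTGAA (or TTCAAA) and TTTAAA, the letters of the cell cycle homology region through which MuvB complexes act on late cell cycle promoters. No motif contains another. CCAAT was in windows of 22 members (73.3%) and of 41.1% of the 27025 genes in the table. TTTGAA was in 21 members (70%) and 20.2% of genes, and TTTAAA in 9 members (30%) and 14.9% of genes. CCAAT and TTTGAA stood together in 1 window for 18 members (60%) and 7.97% of genes. Promoters are shown for members with the largest rises, Ccnb1 and Cdk1, for Ccnb2 and Cdc20, and for Bub3, whose rise was small. Of the 32 windows 4 lie wholly inside the gene as GENCODE annotates it on mm10, 1 each for Bub3, Kif2c, Pttg1 and Cdca8, so no window of Pttg1 is shown; each window printed reaches past the GENCODE 5′ end. Each line gives 200 bases before and 30 after the start, 5′ to 3′ on the gene's own strand, with the motif letters in capitals.
Ccnb1 (chr13:100786457-100786686, minus strand): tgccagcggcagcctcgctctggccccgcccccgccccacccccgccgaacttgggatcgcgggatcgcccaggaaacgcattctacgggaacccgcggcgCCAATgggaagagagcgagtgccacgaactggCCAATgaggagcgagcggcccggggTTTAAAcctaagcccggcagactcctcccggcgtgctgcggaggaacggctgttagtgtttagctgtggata
Cdk1 (chr10:69352883-69353112, minus strand): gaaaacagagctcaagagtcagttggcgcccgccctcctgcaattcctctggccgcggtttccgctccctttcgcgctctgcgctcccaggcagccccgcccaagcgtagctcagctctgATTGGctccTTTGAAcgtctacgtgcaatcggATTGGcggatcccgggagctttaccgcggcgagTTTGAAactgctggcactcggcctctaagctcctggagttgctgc
Ccnb2 (chr9:70421525-70421754, minus strand): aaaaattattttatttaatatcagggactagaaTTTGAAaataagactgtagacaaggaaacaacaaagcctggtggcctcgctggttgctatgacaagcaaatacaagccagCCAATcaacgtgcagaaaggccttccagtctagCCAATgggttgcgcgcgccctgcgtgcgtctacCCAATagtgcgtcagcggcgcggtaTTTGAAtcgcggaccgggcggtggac
Cdc20 (chr4:118437314-118437543, minus strand): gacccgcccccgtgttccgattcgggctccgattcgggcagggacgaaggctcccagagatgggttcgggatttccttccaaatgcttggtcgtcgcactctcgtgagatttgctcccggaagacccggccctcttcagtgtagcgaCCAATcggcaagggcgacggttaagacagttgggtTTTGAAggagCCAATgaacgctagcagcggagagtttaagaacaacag
Bub3 (chr7:131560170-131560399, plus strand): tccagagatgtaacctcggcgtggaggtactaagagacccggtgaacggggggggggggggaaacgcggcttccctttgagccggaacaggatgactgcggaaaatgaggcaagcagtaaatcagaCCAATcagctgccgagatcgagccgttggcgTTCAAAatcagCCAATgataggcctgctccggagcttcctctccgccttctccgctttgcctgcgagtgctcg
Ccnb1 held CCAAT copies and TTTAAA, Cdk1 held ATTGG and TTTGAA, Ccnb2 and Cdc20 held CCAAT and TTTGAA, and Bub3 held CCAAT and TTCAAA. These matches describe letters, and binding at them was not measured.

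The remaining genes of mitosis rose less evenly. Of 119 further mitosis genes listed, 116 were in the table and tested. At 48 hr 111 were called higher in KO and 109 in WT, where 33% of all tested genes were in each genotype. There were 2 called lower in KO (37.7% of all tested genes) and 3 in WT (40.9%). The median log2 fold change of the 116 was 2.95 in each genotype. All 32 further kinetochore genes rose in both genotypes, including Sgol1, the shugoshin that guards centromeric cohesion, with a log2 fold change of 5.45 in KO and 5.36 in WT, and Ska1, of the microtubule-tracking Ska complex, with 4.81 in KO and 5.26 in WT. All 8 condensin subunits rose in both, among them Ncapg with a log2 fold change of 5.42 in KO and 5.03 in WT. For the anaphase-promoting complex and its regulators 18 of 18 were called higher in KO and 17 of 18 in WT, with a median of 1.84 in KO and 1.81 in WT. Within that list Ube2c, the ubiquitin-conjugating enzyme of the complex, had a log2 fold change of 4.64 in KO and 4.37 in WT. Of 15 genes of mitotic entry control 15 were called higher in KO and 14 in WT. Melk, a kinase of that list, had a log2 fold change of 5.36 in KO and 5.38 in WT. The MuvB and MYB core had 5 of 6 genes called higher in each genotype. Mybl2, which encodes B-MYB, had a log2 fold change of 5.52 in KO and 4.89 in WT, and the list's median was 1.40 in KO and 1.19 in WT.

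Cohesin was the list with genes called lower as well as higher in both genotypes, 10 of 13 called higher and 2 called lower in each. Esco2 and Cdca5, which establish and protect cohesion in S and G2 phase, had log2 fold changes of 4.57 in KO and 4.07 in WT for Esco2, and of 4.13 in KO and 4.09 in WT for Cdca5. The genes that fell were those of the cohesin loader, Nipbl with a log2 fold change of -1.36 in KO and -1.32 in WT and Mau2 with -0.61 in KO and -0.77 in WT. For further spindle and cytokinesis genes 23 of 24 rose in each genotype, and Numa1, a spindle pole protein, was called lower in WT by a log2 fold change of -0.54 (edgeR adjusted p 0.039), a call that was lost with relative log expression factors (adjusted p 0.075) and without KO 48 hr replicates 10 and 11 (adjusted p 0.074). Of 32 DNA replication genes 31 were called higher in each genotype, where 33% of all tested genes were. Their median log2 fold change was 3.17 in KO and 3.27 in WT, and all 32 were positive in each.

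KO was next compared with WT after stimulation. No member was called (0 of 36, edgeR adjusted p below 0.05), where 2.02% of all tested genes were called, 1.47% higher and 0.544% lower in KO. At an unadjusted p below 0.05 there were 3 members, Mki67, Nek2 and Prc1, against 14.4% of all tested genes. DESeq2 called 1 member, the edgeR likelihood ratio test 1 and limma-voom 0. The member log2 fold changes ran between -0.15 and 0.60 with a median of 0.09, and the median of all genes was 0.01. Of the 36, 29 were positive, against 50.9% of all tested genes; the count was 22 with relative log expression factors and 19 when KO 48 hr replicate 11 was left out. That library was the highest of the 6 for 18 members, and WT 48 hr replicate 8 was the lowest for 15. For 12 members (33.3%) all 3 KO libraries lay above all 3 WT libraries, against 10.7% of all tested genes, and for 1 member, Ndc80, they lay below, against 9.53%. Without KO replicates 10 and 11 the count of positive members was 21, and the lone KO library lay above all WT libraries for 14 members (27.9% of all tested genes) and below them for 6 (24.7%).

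The widest difference at 48 hr was in Mki67. It was at 335, 361 and 313 CPM in the KO 48 hr libraries and 206, 203 and 255 CPM in the WT 48 hr libraries, so the lowest KO library was above the highest WT library. The log2 fold change was 0.60 (SE 0.16, 95% interval 0.27 to 0.94), or 1.52-fold, and missed the threshold with an edgeR quasi-likelihood adjusted p of 0.07. Over the alternative fits the adjusted p ran between 0.0096 and 0.78. It passed with DESeq2 (0.027), with the likelihood ratio test (0.0096) and with only the 6 stimulated libraries in the fit (0.015). Without KO 0 hr replicate 4, KO 0 hr replicate 5 or KO 48 hr replicate 12 it passed as well, at 0.016, 0.039 and 0.0496.

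Nek2 was at 227, 271 and 235 CPM in the KO 48 hr libraries and 185, 170 and 216 CPM in the WT 48 hr libraries, a log2 fold change of 0.36 (SE 0.14). Prc1 was at 329, 354 and 287 CPM in the KO 48 hr libraries and 247, 249 and 245 CPM in the WT 48 hr libraries, a log2 fold change of 0.39 (SE 0.15). For both genes the KO libraries stood above the WT libraries without overlap, and edgeR adjusted p was 0.21 for Nek2 and 0.22 for Prc1. Prc1 was called only with the 48 hr libraries alone in the fit (edgeR adjusted p 0.046). Its log2 fold change ran between 0.17 and 0.47 over the alternatives. Anln was at 67.1, 78.1 and 65.3 CPM in the KO 48 hr libraries and 56.5, 56 and 58.2 CPM in the WT 48 hr libraries, also without overlap, and its log2 fold change of 0.30 (SE 0.15) had an edgeR adjusted p of 0.40. The other 8 members with KO wholly above WT were Aurka, Bub1b, Cdc20, Cenpe, Cenpf, Ttk, Foxm1 and Cdca8, with log2 fold changes between 0.15 (Cdc20) and 0.28 (Bub1b).

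By role, the median KO over WT difference at 48 hr was 0.11 on the log2 scale for the entry genes, 0.11 for the checkpoint, 0.15 for anaphase onset, 0.03 for the centromere and kinetochore, 0 for the passenger complex, 0.05 for the spindle proteins, 0.19 for the midzone and 0.32 for the mitotic chromosome genes Mki67 and Top2a. Ccnb1 and Top2a, with the most CPM per kilobase at 48 hr, overlapped between the genotypes. Ccnb1 was at 984, 1060 and 975 CPM in the KO 48 hr libraries and 927, 1000 and 899 CPM in the WT 48 hr libraries. Its log2 difference was 0.10 (95% interval -0.28 to 0.47). Top2a was at 1250, 1260 and 1170 CPM in the KO 48 hr libraries and 1180, 1200 and 1220 CPM in the WT 48 hr libraries, a log2 difference of 0.03 (95% interval -0.32 to 0.38). Cdk1, 16th on that scale in KO and 14th in WT, also overlapped and differed by -0.02 (95% interval -0.36 to 0.33). Ndc80 was at 150, 158 and 142 CPM in the KO 48 hr libraries and 170, 169 and 160 CPM in the WT 48 hr libraries, the member with every KO library below every WT library, by a log2 difference of -0.15 (SE 0.15). Plk1 overlapped between genotypes at 48 hr, with a log2 fold change of 0.21 (SE 0.10, edgeR adjusted p 0.38), and so did Bub3, with 0.09 (SE 0.12, edgeR adjusted p 0.79). The sign of the Bub3 difference turned when KO replicate 11 or WT replicate 9 was left out, and it was -0.12 without KO replicates 10 and 11. Foxm1 was at 72.1, 69.6 and 73.8 CPM in the KO 48 hr libraries and 65, 48.1 and 68.2 CPM in the WT 48 hr libraries, without overlap, a log2 fold change of 0.25 (SE 0.18, edgeR adjusted p 0.59).

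**Figure D3:**
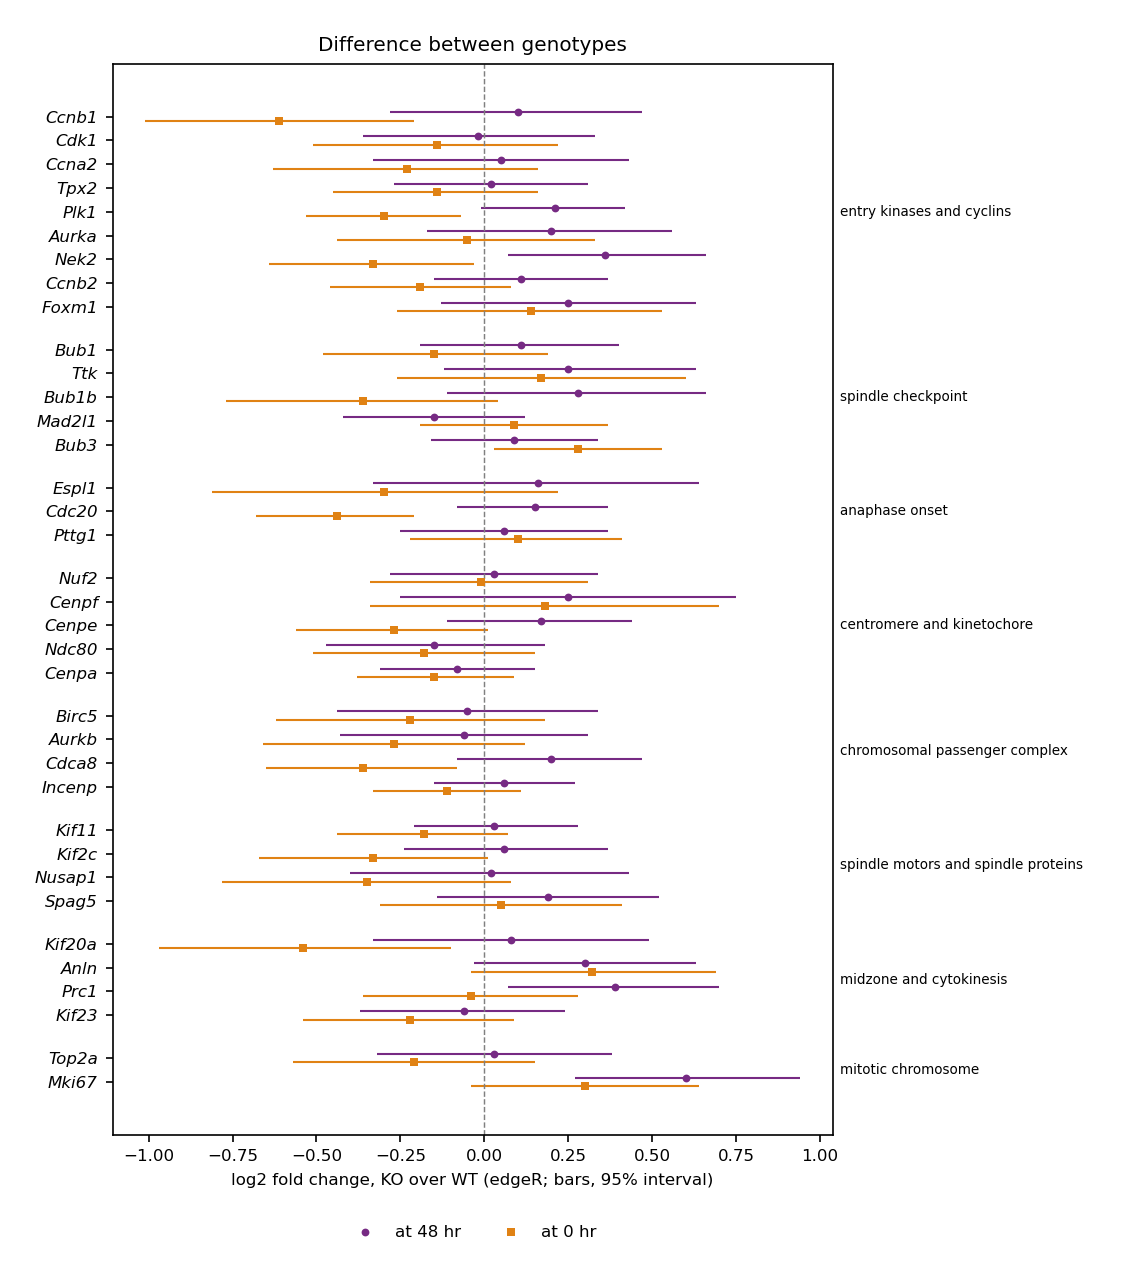
Log2 fold change of each member in KO over WT, at 48 hr and at 0 hr, with the 95% interval from the edgeR fit and a line at 0. Mki67 at 48 hr, at 0.60, lies farthest above 0, Ccnb1 at 0 hr, at -0.61, lies farthest below it, and no member passed the adjusted threshold at either time.

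Summed over the 36 members, the level was 10900, 11300 and 10400 CPM in the KO 48 hr libraries and 10200, 10200 and 10100 CPM in the WT 48 hr libraries. All 3 KO sums were above the WT sums. Without Top2a and Ccnb1, the members with the most counts at 48 hr, the sums were 8630, 9000 and 8250 CPM in KO and 8120, 8020 and 7990 CPM in WT. The 32 DNA replication genes ran the other way, at 10100, 10300 and 10500 CPM in the KO 48 hr libraries and 11000, 10900 and 11000 CPM in the WT 48 hr libraries. None of the 32 was called in KO against WT at 48 hr by edgeR (3 at an unadjusted p below 0.05; DESeq2 called 1, lower), and 25 of the 32 differences were negative, with a median of -0.06. The ratio of the mitosis sum to the replication sum, which does not depend on how libraries are scaled, was 1.07, 1.09 and 0.991 in the KO 48 hr libraries and 0.927, 0.936 and 0.919 in the WT 48 hr libraries, with no overlap. At 0 hr it was 0.496, 0.404 and 0.395 in KO and 0.432, 0.421 and 0.421 in WT, with overlap.

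**Figure D4:**
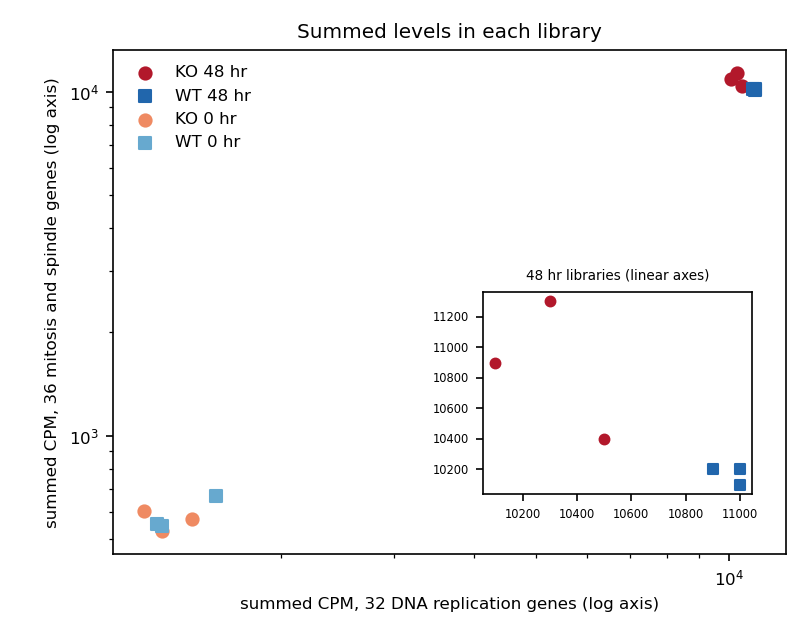
Summed level of the 36 mitosis genes against that of the 32 DNA replication genes, in TMM-scaled CPM, with 1 point for each library and an inset for the 48 hr libraries. In the inset the KO libraries lie at higher mitosis sums (10400 to 11300 CPM) and lower replication sums (10100 to 10500 CPM) than the WT libraries (10100 to 10200 CPM and 10900 to 11000 CPM).

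Other cell markers moved with genotype at 48 hr. The T cell sums given above were high in KO replicates 10 and 11, whose mitosis to replication ratios of 1.07 and 1.09 were also the highest, while KO replicate 12, with a T cell sum of 45 CPM, had a ratio of 0.991. Those sums rested on part of the list and do not by themselves measure T cells. In KO replicates 10, 11 and 12, Cd4 was at 0.271, 0.132 and 0.622 CPM and Cd5 at 0.419, 0.29 and 0.57 CPM. Cd3g was at 0.0985, 0.237 and 0.156 CPM, and Zap70 at 1.87, 2.06 and 0.726 CPM. Of the T cell markers 6 of 9 were positive in KO against WT and none was called (2 at an unadjusted p below 0.05). The 6 plasma cell markers summed to 769, 826 and 985 CPM in the KO libraries and 651 to 665 CPM in the WT libraries, all 6 positive and 2 called higher. The 6 NK cell markers summed to 8.38, 12.4 and 3.76 CPM in the KO libraries and 3.4 to 4.92 CPM in the WT libraries, 4 of 6 positive. Of these, Prf1 (perforin) was called higher, with a log2 fold change of 2.2 (edgeR adjusted p 0.022). The 7 germinal center B cell markers summed to 284, 301 and 243 CPM in the KO libraries and 297 to 312 CPM in the WT libraries, 6 of 7 positive. Of these, Mef2b was called higher, with a log2 fold change of 0.96 (edgeR adjusted p 0.0039). No marker of these 4 lists was at 0 in either group. The part of these cells in the differences of the mitosis genes was not tested. Leaving out KO replicates 10 and 11, the Mki67 log2 fold change was 0.46 (edgeR adjusted p 0.78), with the single KO library left assumed to vary like the other groups. Leaving out KO 0 hr replicates 4 and 5 instead, it was 0.60 and called (edgeR adjusted p 0.012).

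Before stimulation the signs leaned the other way. Of the 36 members 27 were negative in KO against WT at 0 hr and 9 positive, where 49.8% of all tested genes were positive. The member median was -0.18 on the log2 scale, with a range of -0.61 to 0.32, and the median of all genes was 0. No member was called by edgeR (0 of 36, against 1.11% of all tested genes, 0.68% higher and 0.429% lower). At this time 7 members had an unadjusted p below 0.05, against 10.7% of all tested genes, and DESeq2 called 2, the likelihood ratio test 2 and limma-voom 0. WT 0 hr replicate 2 was the highest of the 6 libraries for 19 members, and KO 0 hr replicates 5 and 4 were the lowest for 14 and 10. KO 0 hr replicate 4 was also the highest for 7. Without WT replicate 2 the count of positive members was 16 and the median -0.08, and without KO replicates 4 and 5 the count was 13 and the median -0.11. In that case the lone KO library lay below all WT libraries for 16 members (26.7% of all tested genes) and above them for 7 (28.2%).

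Cdc20 and Ccnb1 were the members with the lowest p-values at 0 hr. Cdc20 was at 10.5, 11.9 and 14.2 CPM in the KO 0 hr libraries and 16.8, 16.8 and 16.1 CPM in the WT 0 hr libraries. Every KO library was below every WT library, and its log2 fold change was -0.44 (SE 0.11, 95% interval -0.68 to -0.21, edgeR adjusted p 0.081). Ccnb1 was at 7.39, 6.93 and 11.1 CPM in the KO 0 hr libraries and 11.6, 16.6 and 10.8 CPM in the WT 0 hr libraries. The groups overlapped, and its log2 fold change was -0.61 (SE 0.18, edgeR adjusted p 0.17). DESeq2 called both lower, Cdc20 at an adjusted p of 0.0018 and Ccnb1 at 0.041. Without KO replicates 4 and 5 the log2 fold changes were -0.22 for Cdc20 (edgeR adjusted p 0.71) and -0.21 for Ccnb1 (edgeR adjusted p 0.89). Plk1 was at 6.51, 7.16 and 7.38 CPM in the KO 0 hr libraries and 8.62, 9.11 and 8.24 CPM in the WT 0 hr libraries, without overlap, a log2 fold change of -0.30 (SE 0.11, edgeR adjusted p 0.28). Nek2 and Cdca8 completed the 4 members (11.1%) whose KO libraries all lay below the WT libraries, against 7.92% of all tested genes. Both were separated very narrowly, at 8.01 against 8.02 CPM for Nek2 and 12.2 against 12.3 CPM for Cdca8. Before scaling, the Cdca8 count was 640 in KO replicate 4 (library total 39207010) and 620 in WT replicate 2 (38956484). In the other direction Bub3 was at 128, 129 and 134 CPM in the KO 0 hr libraries and 102, 124 and 96 CPM in the WT 0 hr libraries. It was the 1 member with KO wholly above WT, against 7.02% of all tested genes, with a log2 fold change of 0.28 (SE 0.12, edgeR adjusted p 0.39). Mki67 was at 45.1, 28.3 and 31.9 CPM in the KO 0 hr libraries and 27.3, 31.3 and 26.9 CPM in the WT 0 hr libraries. The KO and WT libraries overlapped, and the log2 fold change was 0.30 (SE 0.16, edgeR adjusted p 0.55). Foxm1 overlapped as well, with 0.14 (SE 0.18, edgeR adjusted p 0.90), which turned to -0.06 without WT replicate 1. Cdc20, Ccnb1 and Plk1 were at or under 16.8 CPM in every 0 hr library.

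Marker sums of other cells varied among the unstimulated libraries. The 7 germinal center B cell markers, which mark B cells that divide in the spleen, summed to 61.2, 79.9 and 141 CPM in the KO 0 hr libraries and 137, 154 and 134 CPM in the WT 0 hr libraries. All 7 were negative with a median of -1.27, none was called (5 at an unadjusted p below 0.05) and none was at 0. The KO libraries with the lowest sums, replicates 4 and 5, were the lowest of the 6 libraries for 10 and 14 members. Replicate 4 was also the highest for 7 members. Its summed member level of 604 CPM was above the 526 and 572 CPM of KO replicates 5 and 6. The erythroid sum was 3540, 333 and 907 CPM in the KO libraries and 919, 938 and 652 CPM in the WT libraries, with 7 of 7 positive, none called (1 at an unadjusted p below 0.05) and none at 0. The monocyte and macrophage sum was 200, 381 and 147 CPM in the KO libraries and 125, 249 and 132 CPM in the WT libraries, with 6 of 7 positive, none called (0 at an unadjusted p below 0.05) and none at 0. Of the 9 T cell markers, whose sums are given above, 7 were positive and 1 was called higher, Zap70, with a log2 fold change of 2.04 (edgeR adjusted p 0.041). The plasma cell markers summed to 551, 888 and 609 CPM in the KO libraries and 431, 550 and 411 CPM in the WT libraries, 4 of 6 positive. Of these, Sdc1 was called higher, with a log2 fold change of 1.02 (edgeR adjusted p 0.0483). The NK cell markers summed to 21.1, 29.5 and 13.5 CPM in the KO libraries and 13.4, 16.3 and 12.5 CPM in the WT libraries, 4 of 6 positive and none called (1 at an unadjusted p below 0.05). The 6 tested neutrophil markers summed to 13.6, 99.5 and 0.176 CPM in the KO libraries and 30.3, 44.6 and 19.5 CPM in the WT libraries. Of these, 5 of 6 were positive and none was called (0 at an unadjusted p below 0.05). The part of these cells in the 0 hr differences was not tested.

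The KO over WT difference was below 0 at rest and above 0 after stimulation for 21 of the 36 members (58.3%, against 22.6% of all tested genes). The change over time was larger in KO than in WT for 32 of 36, against 51.4% of all tested genes. The test of that difference itself, the interaction of genotype and time, called no member (0 of 36 by edgeR, against 0.115% of all tested genes). Of the 36, 8 had an unadjusted p below 0.05, against 8.61% of all tested genes, DESeq2 called 1, and limma-voom and the likelihood ratio test called 0. The median interaction was 0.23 on the log2 scale, with 0.01 over all genes, and the count of positive members ran between 26 and 34 over the alternatives. Nek2 had 0.70 (SE 0.20, edgeR adjusted p 0.28), Ccnb1 0.70 (SE 0.25, edgeR adjusted p 0.45), Cdc20 0.59 (SE 0.15, edgeR adjusted p 0.24) and Plk1 0.51 (SE 0.15, edgeR adjusted p 0.30). The interaction was 0.30 for Mki67 (SE 0.22, edgeR adjusted p 0.76), 0.11 for Foxm1 (SE 0.25, edgeR adjusted p 0.95), which turned to -0.07 without WT 48 hr replicate 8, and -0.18 for Bub3 (SE 0.16, edgeR adjusted p 0.82). The member DESeq2 called was Cdc20, at 0.54 with an adjusted p of 0.025. Cdc20, Nek2 and Cdca8 (8.33% of members, against 0.565% of all tested genes) were wholly below WT at 0 hr and wholly above it at 48 hr. For Nek2 and Cdca8 the 0 hr separation was very narrow and rested on the scaling. The highest KO and lowest WT libraries were at 8.01 and 8.02 CPM for Nek2 and at 12.2 and 12.3 CPM for Cdca8. Nek2 was at 7.29, 8.01 and 7.75 CPM in the KO 0 hr libraries and 8.02, 9.33 and 11.7 CPM in the WT 0 hr libraries, the reverse of its order at 48 hr. Cdca8 was at 195, 188 and 180 CPM in the KO 48 hr libraries and 169, 162 and 161 CPM in the WT 48 hr libraries. Unstimulated, Cdca8 was at 12.2, 9.3 and 10.9 CPM in the KO 0 hr libraries and 16.8, 12.3 and 12.5 CPM in the WT 0 hr libraries.

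Of the further mitosis genes, Ncapd2, a regulatory subunit of condensin I, was called in KO against WT at both times. It was at 515, 457 and 456 CPM in the KO 48 hr libraries and 214, 197 and 242 CPM in the WT 48 hr libraries. Its 0 hr levels were 46.9, 66.3 and 54.6 CPM in the KO libraries and 32.3, 34.2 and 27.6 CPM in the WT libraries. Every KO library was above every WT library at each time, and the log2 fold change was 1.13 (SE 0.14, edgeR adjusted p 7.1e-04) at 48 hr and 0.84 (SE 0.14, edgeR adjusted p 0.0087) at 0 hr. Ncapd2 lies at chr6:125168007-125191701 (mm10), 37.4 kb from Chd4 at chr6:125095981-125130591. Of the members, Foxm1 and Mad2l1 also lie on chromosome 6, 3230 kb and 58500 kb from Chd4. The other 7 condensin subunits were not called at either time. Without KO 48 hr replicates 10 and 11 the 48 hr change was 1.02 with an adjusted p of 0.081, and at 0 hr the call was lost without WT 0 hr replicate 3 (adjusted p 0.06), with only the 0 hr libraries in the fit (0.091) and on the most abundant transcript (0.056). Cep55, which recruits the abscission machinery to the midbody, was at 5.2, 5.96 and 5.66 CPM in the KO 0 hr libraries and 8.49, 8.66 and 6.78 CPM in the WT 0 hr libraries. It was called lower at 0 hr by a log2 fold change of -0.51 (SE 0.11) with an edgeR adjusted p of 0.0477. That call was lost in each fit that left out 1 library, apart from the fit without WT 0 hr replicate 3. Without KO 0 hr replicates 4 and 5 the Cep55 difference was -0.48 (edgeR adjusted p 0.34). No other of the 116 was called between genotypes at either time, and none had a called interaction (14 at an unadjusted p below 0.05).

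Single transcripts were tested as well; 12 of the 36 members have a single row in the table and the others have several. Of 82 member transcripts 78 passed the filter among 36629. Over time 67 of the 78 were called higher and 1 lower in KO, where 23.8% and 26% of all tested transcripts were, and 68 higher and 1 lower in WT, where 24.7% and 27.8% were. Between genotypes edgeR called none of the 78 at 48 hr, none at 0 hr and none for the interaction, where 0.341%, 0.227% and 0.00819% of all tested transcripts were called. At an unadjusted p below 0.05 there were 2 of the 78 at 48 hr (9.97% of all tested transcripts), 12 at 0 hr (7.63%) and 10 for the interaction (6.84%). The transcripts named here were chosen after their values were seen, and the division of reads among near-identical transcripts, which Salmon estimates, adds error to each share.

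The transcript that fell was the second of the Pttg1 transcripts, RefSeq variant 2 (uc007imn.2) in the deposited names. It was at 3.2, 2.27 and 2.46 CPM in the KO 48 hr libraries and 2.5, 3.4 and 2.46 CPM in the WT 48 hr libraries. Before stimulation it was at 13.7, 11.5 and 12.8 CPM in the KO libraries and 16, 9.19 and 14.1 CPM in the WT libraries. The stimulated libraries were all below the unstimulated ones, and its log2 fold change was -2.25 in KO (SE 0.25, edgeR adjusted p 2.8e-05) and -2.19 in WT (SE 0.25, edgeR adjusted p 3.2e-05). Variant 1 of Pttg1 (uc011xth.1) was at 48.9, 56.3 and 53.2 CPM in the KO 48 hr libraries and 49.9, 56.1 and 45.2 CPM in the WT 48 hr libraries. At 0 hr it was at 24.9, 14.9 and 18.5 CPM in the KO libraries and 18.1, 18.4 and 14.2 CPM in the WT libraries. It rose by a log2 fold change of 1.45 in KO (SE 0.18, edgeR adjusted p 6.1e-05) and 1.62 in WT (SE 0.18, edgeR adjusted p 2.5e-05). Variant 2 thus held 4.8% of Pttg1 counts in KO and 5.23% in WT at 48 hr, and 39.8% in KO and 44.1% in WT at 0 hr. Summed, these opposite changes give the small change of Pttg1 as a gene.

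Birc5 showed unequal rises. Its variant 1 (uc007mod.1) averaged 367 ± 19.5 CPM in KO and 380 ± 29.8 CPM in WT at 48 hr, and 7.08 ± 3.67 CPM in KO and 8.25 ± 2.14 CPM in WT at 0 hr (SD, n = 3 in each group), a log2 fold change of 5.72 in KO (SE 0.35, edgeR adjusted p 3.5e-07) and 5.57 in WT (SE 0.35, edgeR adjusted p 3.5e-07). Variant 3 (uc007moe.1) averaged 22.2 ± 0.762 CPM in KO and 23.8 ± 2.89 CPM in WT at 48 hr, and 10.8 ± 2.93 CPM in KO and 12.6 ± 1.27 CPM in WT at 0 hr, a log2 fold change of 1.04 in KO (SE 0.18, edgeR adjusted p 8.1e-04) and 0.97 in WT (SE 0.18, edgeR adjusted p 0.0013). With library totals alone the change of variant 3 was 0.22 in KO and 0.03 in WT and was not called. Its share of Birc5 counts was 5.71% in KO and 5.9% in WT at 48 hr and 61% in KO and 60.6% in WT at 0 hr. For Cdc20 and Cdca8 the main transcript rose and a minor one did not pass the test. The main Cdc20 transcript (uc008ukc.2) had a log2 fold change of 5.04 in KO (SE 0.15, edgeR adjusted p 9.0e-09) and 4.43 in WT (SE 0.14, edgeR adjusted p 9.4e-09). The minor one (uc008ukd.2) had 0.27 in KO (SE 0.35, edgeR adjusted p 0.54) and 0.54 in WT (SE 0.35, edgeR adjusted p 0.21), and held 0.786% in KO and 1.18% in WT at 48 hr and 17.3% in KO and 15.3% in WT at 0 hr. The main Cdca8 transcript (uc008urj.2) had a log2 fold change of 4.39 in KO (SE 0.15, edgeR adjusted p 1.3e-08) and 3.81 in WT (SE 0.14, edgeR adjusted p 1.6e-08). The minor one (uc008urk.2) had 0.45 in KO (SE 0.31, edgeR adjusted p 0.24) and 0.19 in WT (SE 0.31, edgeR adjusted p 0.63).

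**Figure D5:**
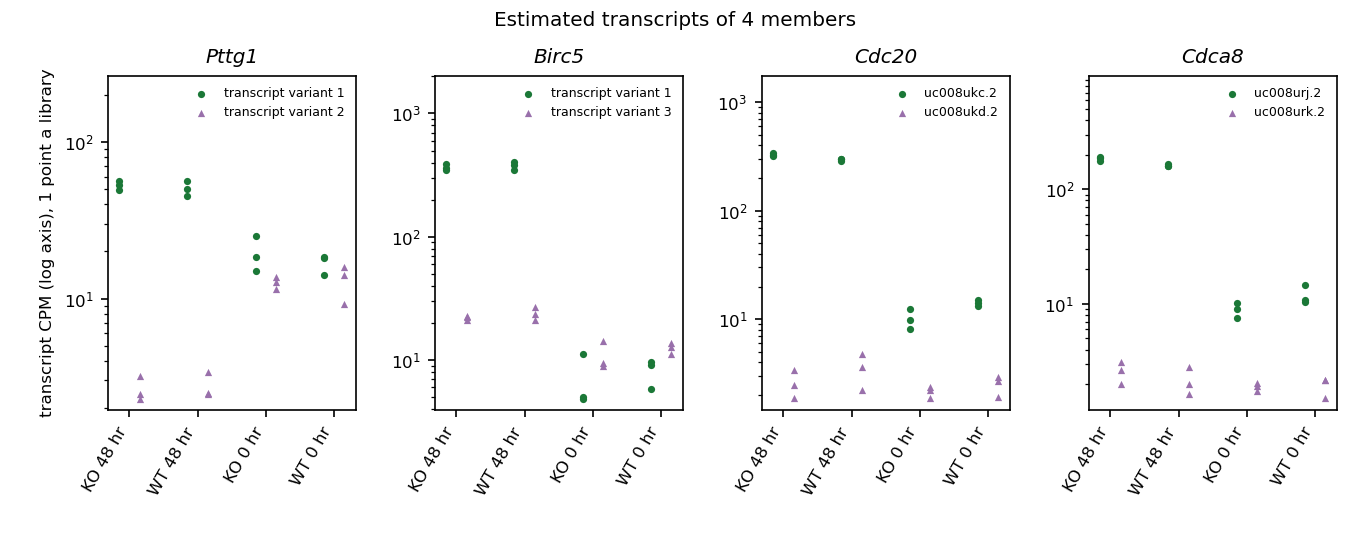
Levels of the tested transcripts of Pttg1, Birc5, Cdc20 and Cdca8 in each library, in TMM-scaled CPM on a log axis. Pttg1 variant 2 runs between 2.27 and 3.4 CPM in the 48 hr libraries and between 9.19 and 16 CPM in the 0 hr libraries, the reverse of the other Pttg1 transcript.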

How the data were processed

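RNA from purified splenic B cells was amplified with the SMART-Seq v4 kit, which does not mark strand, and sequenced in pairs on a HiSeq, per the labels' protocols. The authors deposited estimated counts per transcript, not normalized; the submitters' processing notes name bcl2fastq 2.20.0.422, Trimmomatic 0.36, Salmon 0.8.2, DESeq2 1.14.1 and genome build mm10, and how each was used is not given in the sources used here.

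Gene names were trimmed (344 names changed) and transcripts summed per gene. These expected counts were rounded to whole numbers. No counts (0%) were in rows without a name. Genes were filtered with filterByExpr, scaled by TMM (factors 0.723 to 1.42) and fitted in edgeR 4.0.16 (R 4.3.3) with 1 robust quasi-likelihood model over the 12 libraries as 4 groups (common dispersion 0.0534, 8 residual degrees of freedom), with contrasts KO over WT at each time, 48 hr over 0 hr in each genotype, and their interaction. P-values were Benjamini-Hochberg adjusted over all 19125 genes at a threshold of 0.05, intervals are 95%, and CPM uses the scaled library sizes. Replicates of a group differed by more than sampling noise (chi-square per gene 17.1 to 123). The number of reads and Salmon's assignment limit precision, and reads of overlapping or antisense genes cannot be told apart. Positions and coding transcript lengths were taken from the GENCODE annotation of mm10 by symbol, and promoters from RefSeq by symbol.

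Alternatives were other scalings, filters, DESeq2 1.42.0, limma 3.58.1 voom, a likelihood ratio test, contrast libraries alone, single transcripts and leaving out libraries. The procedure was tested on simulated data. Figures were drawn with matplotlib 3.10.9. The members, the other gene lists and the tests were chosen with earlier results of these data known. Over time every member is named. Between genotypes the rule named members that were called, Plk1, Mki67, Ccnb1, Foxm1 and Bub3 in each contrast, and up to 3 members of lowest p; of the other lists it named called genes with the largest changes, at most 3 in each direction. Anln, Top2a, Cdk1, Ndc80, Cdca8 and the transcripts were singled out after their values were seen.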

Additional observations from a re-analysis of the deposited data

How the results depend on the processing

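The rise of the members over time kept its direction and its call for at least 35 of 36 genes in each genotype over 26 alternatives, of which those leaving out KO 0 hr replicates 4 and 5 together, or KO 48 hr replicates 10 and 11 together, were chosen after seeing the data. No paired analysis was possible because the 12 libraries carry 12 different replicate numbers, so no number is shared between groups. A fit that leaves 1 library in a group assumes that it varies like the others.

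Scaling moved all genes together: the median over time was -1.12 in KO and -1.28 in WT with library totals and -0.93 and -1.06 with upper-quartile factors, against -0.30 and -0.39 with TMM, while the members stayed 4.98 in KO and 4.63 in WT above it. The member median was 3.87 in KO and 3.36 in WT with library totals, 4.05 and 3.57 with upper-quartile factors, 4.50 and 4.09 with a 1 CPM filter and 4.87 and 4.46 on the most abundant transcript. In KO it was 4.54 without replicates 4 and 5 and 4.56 without 10 and 11. Pttg1 turned to -0.03 in KO and -0.07 in WT with library totals. The other mitosis genes called lower over time numbered 8 in KO and 12 in WT with library totals, 5 in KO and 8 in WT with upper-quartile factors, and 1 in KO by transcript; the DNA replication genes called lower were 1 in KO and 2 in WT with library totals and 1 in each with upper-quartile factors.

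For KO over WT at 48 hr, members called higher were 1 without a filter, 1 with DESeq2, 1 with the likelihood ratio test, 1 without KO 0 hr replicates 4 and 5, 2 with only those libraries, and 0 to 1 when single libraries were left out. Other mitosis genes called higher were 2 with the likelihood ratio test, 2 with only those libraries, 0 without KO 48 hr replicates 10 and 11, and 1 to 2 when single libraries were left out; 1 DNA replication gene was called lower with DESeq2 and 1 with only those libraries. Bub3 ran between -0.02 (replicate 11 of the stimulated KO cells left out) and 0.17 when single libraries were left out, with -0.01 when replicate 9 was dropped, and turned to -0.12 without KO 48 hr replicates 10 and 11.

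At 0 hr, members called lower were 1 with upper-quartile factors, 1 with library totals, 2 with DESeq2, 2 with the likelihood ratio test and 0 to 2 when single libraries were left out. Other mitosis genes called lower were 0 with relative log expression factors, no filter, limma-voom, only those libraries, transcripts or without KO 48 hr replicates 10 and 11, 2 with library totals, 5 with the likelihood ratio test, 6 with DESeq2, and 0 to 2 when single libraries were left out; those called higher were 3 with DESeq2, 3 with the likelihood ratio test, 0 with only those libraries or by transcript, and 0 to 2 when single libraries were left out. Cep55 turned to 0.04 on its most abundant transcript, and Foxm1 ran between -0.06 (WT 0 hr replicate 1 left out) and 0.25. For the interaction, DESeq2 called 1 member higher, the median ran between 0.11 and 0.32 when single libraries were left out, and Foxm1 ran between -0.07 (replicate 8 of the stimulated WT cells left out) and 0.31, with -0.04 when replicates 4 and 5 were both dropped. The cause of these changes was not tested. Over the other alternatives these results kept their direction and their side of the threshold, apart from single genes and transcripts. Counted over all alternatives, with those given above, the named genes and transcripts turned sign 9 times, and otherwise lost 37 calls and gained 18. At 0 hr most members were under 30 CPM. The median SE of the member log2 differences between genotypes was 0.16 at 0 hr and 0.15 at 48 hr.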
